A study of Mus musculus with 21 samples.

Results

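The genes of the B cell receptor and of the immunoglobulin constant regions were followed in whole livers of mice that lacked the transcription factor gene Gata4 in sinusoidal endothelium. Of the 9 genes chosen by name, 8 had a row among the 25428 genes measured: the kappa light chain constant gene Igkc, the heavy chain constant genes Ighm, Ighg1, Ighg2b and Igha, the receptor subunit genes Cd79a and Cd79b, and the B cell surface gene Ms4a1. No row carried the symbol Ighd, so the IgD heavy chain was not analysed here. The 10 knockout livers came from a cross of Gata4 floxed mice (STOCK Gata4tm1.1Sad/J) with the Clec4g-icre driver line (C57BL/6N-Tg(Clec4g-icre)1.1Sgoe), and the 11 control livers from siblings whose genotype is labelled wt. All mice were on the diet labelled std. The sources used here do not give age, sex or whether controls carried the floxed allele or the driver. The driver is built on Clec4g, a lectin gene of liver sinusoidal endothelium, so the deletion was aimed at endothelium and not at B cells. The description numbers of the livers form 2 runs without gaps: run 1 holds 5 controls and 4 knockouts, and run 2 holds 6 of each. Run was a term in the fit across all genes, and labels were permuted within runs.

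A B cell carries a membrane antibody of paired heavy and light chains, held together with the signalling subunits CD79A and CD79B, while MS4A1, also called CD20, marks B cells but is lost from plasma cells. The constant region of the heavy chain sets the antibody class: mu for IgM, gamma for IgG and alpha for IgA. B cells that change class join a new constant gene to the same variable region, and plasma cells secrete antibody and hold far more immunoglobulin transcript per cell than resting B cells. In the gene order of assembly GRCm38.p6 the heavy chain constant genes lie side by side as Ighm, Ighd, Ighg3, Ighg1, Ighg2b, Ighg2c, Ighe and Igha. Immunoglobulin constant genes have close relatives, and probes may share their transcripts, so values of the gamma genes in particular are uncertain one by one.

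Sequence was at hand for the promoter of 1 of the 8 genes, Cd79a, which rose in knockout livers. The 250 bases before its start, from RefSeq (GRCm38.p6, chr7:24897247-24897496, plus strand), are shown because the promoter of this gene is a textbook target of early B cell factor. Capitals mark the matches of a partial site of that factor, TCNNGGGA, and of the E-box CAGGTG, each searched on both strands.
Cd79a: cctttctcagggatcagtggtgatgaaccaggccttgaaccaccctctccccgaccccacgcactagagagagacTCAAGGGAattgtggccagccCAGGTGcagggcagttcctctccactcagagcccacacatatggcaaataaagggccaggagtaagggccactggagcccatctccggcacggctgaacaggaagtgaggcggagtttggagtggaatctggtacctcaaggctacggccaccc
The partial site began 175 bases and the E-box 154 bases before the start, and they did not overlap. Windows of the same length held TCNNGGGA in 15.1% and CAGGTG in 17.2% of 32851 promoters. The octamer ATTTGCAT, present in 1.6% of those windows, was not among these letters.

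Every measured immunoglobulin constant gene of the set was higher in knockout livers, by 3.35-fold to 4.73-fold, and the B cell surface and receptor subunit genes differed by 1.46-fold to 1.48-fold. In all, 7 of 8 genes rose at an adjusted p under 0.05 (limma, Benjamini-Hochberg over all genes) and none fell, where 3.28% of all genes rose and 4.05% fell, 7.33% in either direction. The 8 genes had a median log2 difference of 1.76, against -0.013 over all genes. The livers were measured whole, so more cells of a type and more RNA per cell cannot be told apart. In 7 of the 8 genes all 10 knockout livers lay above the control mean of their run, which was so for 3.23% of all genes. For none of the 8 did the groups separate fully, whereas all knockout livers lay above all controls for 0.0905% of genes.

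The libraries that stand apart bear on each of these values. Control replicate 3 held the highest control value of Igkc, Ighm, Ighg2b, Igha and Ms4a1. Knockout replicate 6 held the highest value of all livers for Igkc, Ighm, Ighg1, Cd79a, Cd79b and Ms4a1. Control replicate 3 was also the highest control in mean signal over 10 monocyte and macrophage markers (log2 6.63). The same held for the T cell, plasma cell, B cell surface, immunoglobulin receptor, homing factor and other immunoglobulin constant lists described below. Knockout replicate 6 was the highest of all livers over 10 neutrophil markers (log2 8.46, against 3.03 to 3.24 in controls). It was also the highest over the plasma cell, B cell surface, plasmacytoid dendritic cell, erythroid and other immunoglobulin constant lists. Without both livers, an alternative added after seeing the data, all 8 genes rose, where 4.03% of all genes did. Hepatocyte markers were high in every liver, with a mean log2 signal of 12.9 to 13.2 over 8 genes, and control replicate 3 was the lowest control. Gata4 itself differed by -0.19 ± 0.10 (log2, SE), which missed the threshold (adjusted p = 0.264), so these arrays do not check the genotype labels.

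**Figure D1:**
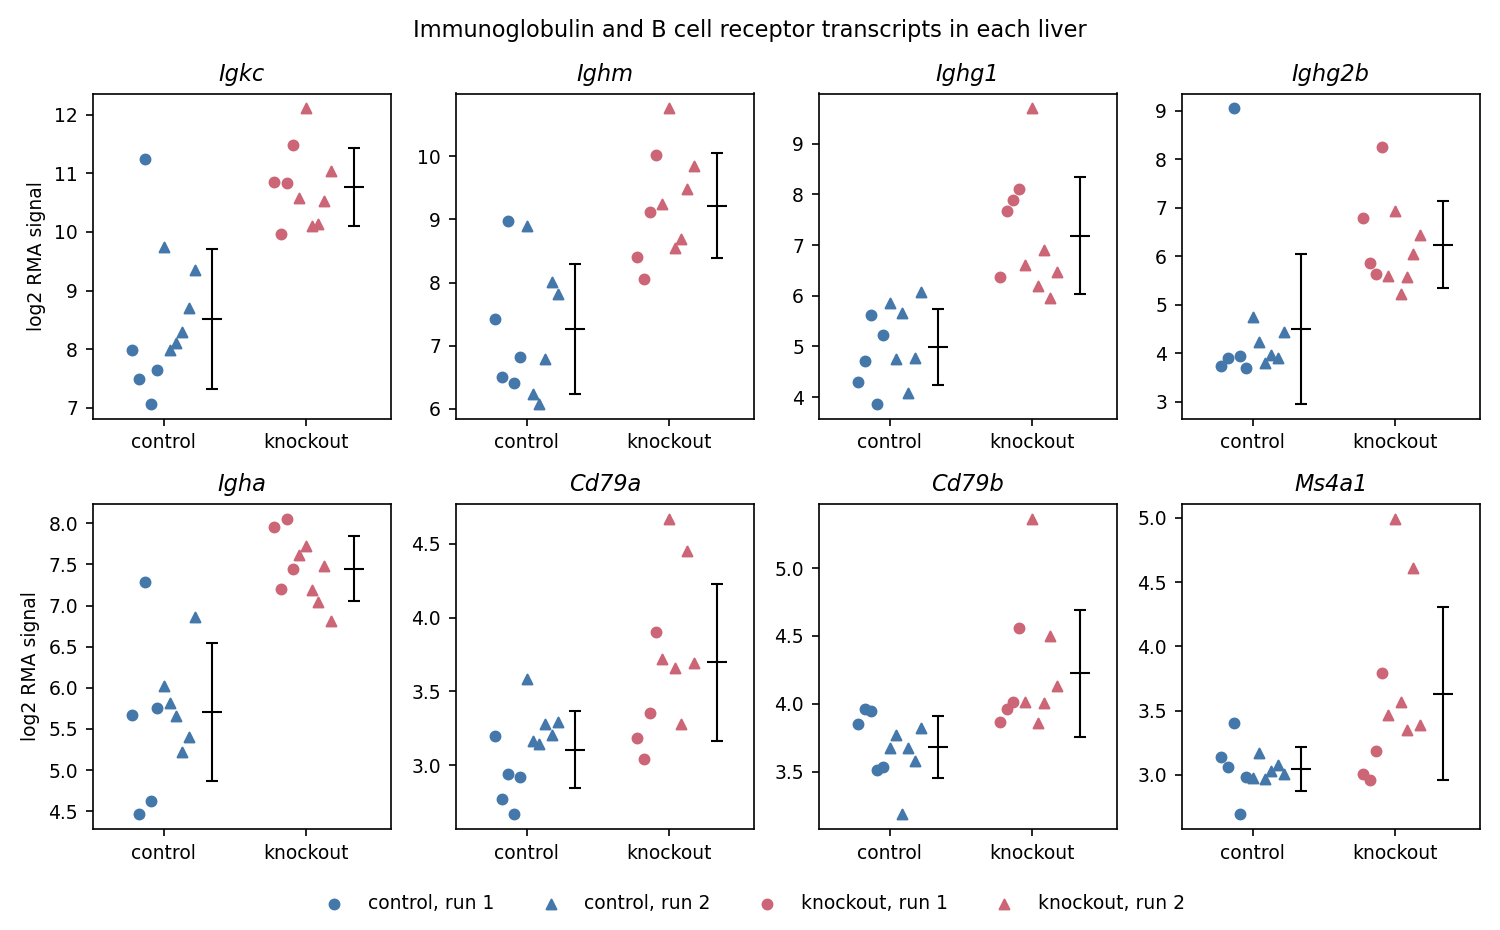
Log2 RMA signal (vertical axis) of 8 genes in each liver, by genotype (colour) and run of description numbers (circles, run 1; triangles, run 2); black bars are the group mean and SD over 11 control or 10 knockout livers. Control replicate 3 stands at 9.05 for Ighg2b, above every knockout liver, and vertical scales differ between panels.

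Igkc, which encodes the constant part of nearly all mouse light chains, had log2 values from 7.06 through a median of 8.11 to 11.2 in controls, and from 9.96 through 10.7 to 12.1 in knockout livers. Control replicate 3 (11.2) was the 1 control inside the knockout range. The difference was 2.24 ± 0.41 (log2, SE; adjusted p = 0.00322), a fold of 4.73 with a 95% interval of 2.63 to 8.49. Run 1 gave 2.49 and run 2 gave 2.05. Without control replicate 3 it was 2.52 ± 0.29. Leaving out the 1 control inside the knockout range separates the groups by construction, so this adds no support. The groups separated in this way for 0.224% of all genes, for which that liver was not chosen by its value.

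Ighm, the mu heavy chain gene, ran from 6.08 through a median of 6.82 to 8.97 in controls and from 8.06 through 9.18 to 10.8 in knockout livers. Control replicates 3 and 6 lay inside the knockout range. The rise was 1.93 ± 0.39 (SE; adjusted p = 0.00554), 3.82-fold (95% interval 2.19 to 6.68), with 1.68 in run 1 and 2.12 in run 2. The mu transcript is made both by resting B cells, which carry IgM as receptor, and by cells that secrete it, and the row does not separate these forms.

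The switched classes rose as well. Ighg1, the gene of the IgG1 heavy chain, ran from 3.86 through a median of 4.77 to 6.06 in controls and from 5.96 through 6.76 to 9.70 in knockout livers, and 9 of 10 knockout livers exceeded the highest control. It rose by 2.20 ± 0.40 (SE; adjusted p = 0.00325), 4.58-fold, with 2.76 in run 1 and 1.78 in run 2. Igha, the alpha heavy chain gene of mucosal IgA, ran from 4.46 through 5.68 to 7.28 in controls and from 6.82 through 7.46 to 8.06 in knockout livers. Its rise of 1.74 ± 0.28 (SE) had the lowest adjusted p of the set (0.00134), a fold of 3.35 with a 95% interval of 2.24 to 5.0. The knockout livers varied least in this gene among the 4 heavy chain genes of the set (SD 0.40, n = 10, against 0.83 for Ighm, 0.90 for Ighg2b and 1.15 for Ighg1).

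Ighg2b, the gene of the IgG2b heavy chain, ran from 3.70 through a median of 3.95 to 9.05 in controls and from 5.22 through 5.96 to 8.24 in knockout livers. The value of 9.05 belonged to control replicate 3. The next control stood at 4.75, below every knockout liver. The rise was 1.78 ± 0.51 (SE; adjusted p = 0.0386), and without control replicate 3 it was 2.19 ± 0.29 (adjusted p = 1.70e-04). Leaving out the highest control raises the difference by construction. With that liver kept, the call was lost without any 1 of 14 other livers, control replicates 1, 2, 4, 5, 7, 8, 9 and 10 and knockout replicates 1, 4, 6, 8, 9 and 10 (adjusted p up to 0.0762).

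The receptor subunits and Ms4a1 moved less on the log2 scale. Cd79a, which encodes the immunoglobulin alpha subunit, ran from 2.67 through a median of 3.16 to 3.58 in controls and from 3.04 through 3.67 to 4.67 in knockout livers. It rose by 0.57 ± 0.14 (SE; adjusted p = 0.0204), 1.48-fold, though 7 of 11 controls lay above the lowest knockout liver. Cd79b, the immunoglobulin beta subunit gene, ran from 3.18 through 3.67 to 3.96 in controls and from 3.86 through 4.01 to 5.37 in knockout livers, and 7 of 10 knockout livers exceeded the highest control. It rose by 0.54 ± 0.15 (SE; adjusted p = 0.0344). That call was lost without any 1 of 6 livers, control replicates 4, 8, 9 and 10 and knockout replicates 4 and 9 (adjusted p up to 0.0673).

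Ms4a1, the CD20 gene, did not pass the test over all livers. It ran from 2.69 through a median of 3.03 to 3.40 in controls and from 2.96 through 3.43 to 5.0 in knockout livers, with 10 of 11 controls above the lowest knockout liver. The difference was 0.57 ± 0.19 (SE, 95% interval 0.18 to 0.97, adjusted p = 0.0714), positive in 8 of 10 knockout livers. Of the 21 fits that left out a single liver, only that without control replicate 3 passed (0.62 ± 0.19, adjusted p = 0.048), where 3.86% of all genes rose. Control replicate 3 was the highest control for Ms4a1. In the other fits the adjusted p reached 0.123 and the difference was as low as 0.43. Run 1 gave 0.18 and run 2 gave 0.86. The change of the difference between runs, 0.68 ± 0.36 (SE), did not pass its own test (adjusted p = 0.54), and neither did that of any other gene of the set (adjusted p from 0.726 to 0.997, where 0.0315% of all genes passed; at an unadjusted p under 0.05 it was 0 of 8 genes and 10.2% of all genes). In controls Cd79a, Cd79b and Ms4a1 had means of 3.10, 3.68 and 3.05, each under the array median of 3.75. Values this low may lie near background, where a log2 difference understates a change, and this was not tested.

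Within each run alone the directions held for all 8 genes, with fewer calls. In run 2, 4 of 8 rose (Igkc, Ighm, Ighg2b and Igha; adjusted p from 0.00687 to 0.0307, limma), where 2.17% of all genes rose. At an unadjusted p under 0.05 it was 8 of 8, and 9.32% of all genes. In run 1, with 9 livers, 0 of 8 passed the limma test, where 0.00787% of all genes rose. At an unadjusted p under 0.05 it was 5 of 8 that were higher, and 5.4% of all genes.

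**Figure D2:**
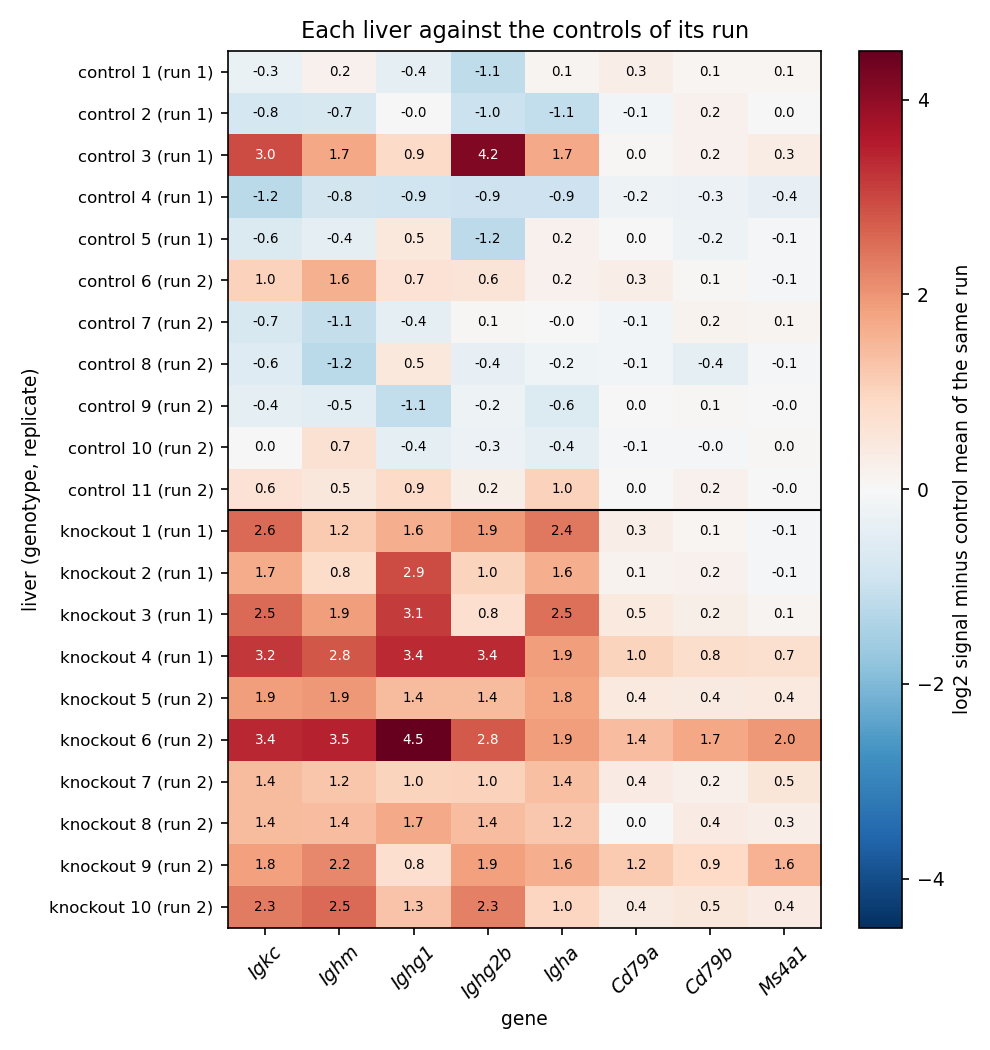
Log2 signal of 8 genes (columns) in each liver (rows) minus the mean of the control livers of the same run; red is higher and blue lower, and each cell gives its value. Knockout livers are red across the first 5 columns, control replicate 3 shares this with 4.2 for Ighg2b, and the largest values of the last 3 columns are in knockout replicates 6, 9 and 4.

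Whether the constant genes differed from the surface and subunit genes was tested within livers, since both kinds were read on the same array. For each of 15 pairs of an immunoglobulin gene with Cd79a, Cd79b or Ms4a1, the log2 difference between genotypes was larger for the immunoglobulin gene, by 1.17 to 1.70, and all 15 passed (permutation of genotype within runs, two-sided, 100000 resamples, adjusted over 18 pairs). The gap between Igkc and Cd79b was 1.70 ± 0.39 (SE; 95% interval 0.88 to 2.51; adjusted permutation p = 0.00315), in the same direction in 10 of 10 knockout livers. The gap between Ighm and Ms4a1 was 1.36 ± 0.36 (adjusted permutation p = 0.00331), and that between Igha and Cd79a was 1.18 ± 0.30 (adjusted permutation p = 0.00331). For Ighg2b the gaps were 1.21 to 1.23 (adjusted permutation p from 0.0323 to 0.0355) and all 3 were lost without any 1 of control replicates 1, 2, 4 and 5 and knockout replicates 4 and 10, which left 12 pairs. Those with Cd79a and Ms4a1 were also lost without control replicate 8 or 10 or knockout replicate 1, or without the run term, and that with Cd79a without control replicate 9 or knockout replicate 6 or 8.

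Within run 2 alone 9 of 18 pairs passed, and within run 1 alone 3 did, those of Ighg1 (exact permutation test in each run). With 5 controls and 4 knockouts, run 1 allows few arrangements of the labels. This limits how low its p can go, though the pairs of Ighg1 passed under the same limit. With so few livers, pairs that did not pass there are undecided. All 15 gaps were positive in both runs, from 0.62 to 1.49 in run 2 and from 1.20 to 2.58 in run 1. The dim signal of Cd79a, Cd79b and Ms4a1 in controls moves with this contrast, and its part in it was not tested.

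The switched classes and IgM could not be told apart in their differences. Ighg1 minus Ighm was 0.26 (95% interval -0.63 to 1.16), Ighg2b minus Ighm was -0.16 (-1.0 to 0.69) and Igha minus Ighm was -0.19 (-0.97 to 0.59), with adjusted permutation p from 0.608 to 0.712.

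Apart from genotype, many of the genes varied together. On values centred on the mean of their genotype and run, 20 of 28 pairs of genes were correlated across the 21 livers by Pearson's r, and 10 of 28 by Spearman's rho (permutation within genotype and run, adjusted over 28 pairs). By r these were 9 of 10 pairs among the immunoglobulin genes, 3 of 3 among Cd79a, Cd79b and Ms4a1, and 8 of 15 between the kinds (median r of 0.597, 0.869 and 0.479). By rho they were 4 of 10, 3 of 3 and 3 of 15. Whether pairs within a kind were more alike was not tested. Cd79a, Cd79b and Ms4a1 went together: Cd79a and Ms4a1 had r = 0.891 (adjusted permutation p = 0.00345) and rho = 0.845 (adjusted permutation p = 0.00602), and r = 0.794 without the 2 livers farthest from the median of Cd79a. Cd79b and Ms4a1 had r = 0.869 and rho = 0.856, and r = 0.716 without its 2 farthest livers. These 3 genes are dim in controls, and the spread of each was larger in knockout livers (SD 0.47 to 0.67, n = 10) than in controls (SD 0.17 to 0.26, n = 11). Knockout livers therefore weigh more in these values of r. In the 10 knockout livers alone the 3 pairs had r = 0.888 to 0.965. Correlation in controls alone was not tested, so these values do not show that controls share the pattern.

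Igkc went with Ighm (r = 0.885, adjusted permutation p = 2.80e-04; rho = 0.884; r = 0.892 without control replicate 3 and knockout replicate 6). With Ighg2b it had r = 0.896 and rho = 0.764, and r = 0.728 without those livers. Between the kinds, Igkc and Ighm were each correlated by r with all 3 of Cd79a, Cd79b and Ms4a1 (r from 0.479 to 0.641), and Ighg2b with Cd79b (0.447) and Ms4a1 (0.449). Of these, Ighm and Cd79a had r = 0.641 (adjusted permutation p = 0.00319; rho = 0.686; 0.698 without the 2 farthest livers). By rho 3 of the 15 pairs between the kinds passed, Igkc with Cd79a and Ighm with Cd79a and Cd79b. Igkc and Ms4a1 had rho = 0.374 (adjusted permutation p = 0.112), and r = 0.271 without control replicate 3 and knockout replicate 6. Igha was not correlated with Cd79a, Cd79b or Ms4a1 past the threshold (r from 0.241 to 0.326, adjusted permutation p from 0.0616 to 0.185). The values of Ighg1 with those 3 genes (r = 0.470 to 0.629, adjusted permutation p from 0.0616 to 0.113) fell to r = 0.131 to 0.227 without knockout replicates 1 and 6, so they rest on those livers.

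**Figure D3:**
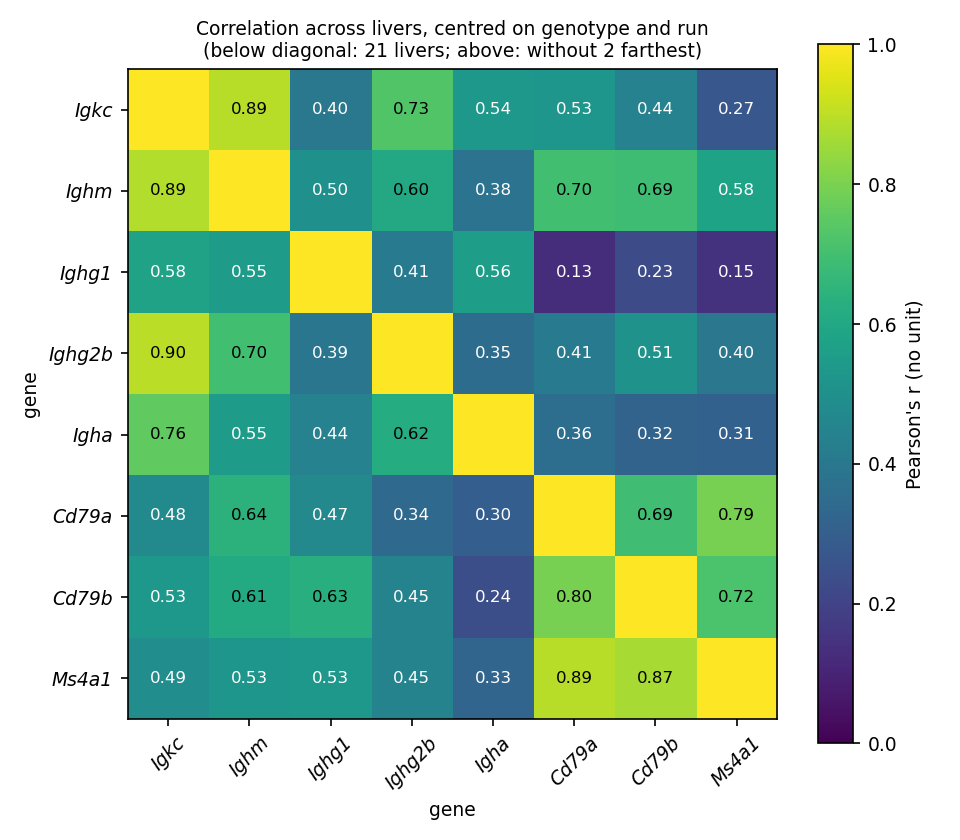
Pearson's r (colour and number, no unit) between 8 genes on values centred on genotype and run; below the diagonal over 21 livers, above it without the 2 livers farthest from the median of the first gene of the pair. The block of Cd79a, Cd79b and Ms4a1 keeps values of 0.69 or more on both sides of the diagonal.

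The named genes closest to Igkc in this centred pattern over 21 livers were Jchain (r = 0.943), the chain that joins IgM and IgA units into polymers, the heavy chain joining segment Ighj4 (0.919), Klra2, a lectin-like receptor gene (0.912), P2ry10b (0.908) and the kappa joining segment Igkj1 (0.907). Control replicate 3 and knockout replicate 6 weigh on these values, which were 0.746 to 0.862 without both. Joining segment rows and constant gene rows may read the same transcripts. Klra2 and P2ry10b did not pass the genotype test (0.53 ± 0.32 and 0.03 ± 0.07, SE). Closest to Cd79b were the kappa variable genes Igkv3-2 (0.888) and Igkv6-25 (0.871), Gys1, a glycogen synthase gene (0.867), the histone gene H2ac4 (0.865) and Cmtm7 (0.855). Without the same livers they had r = 0.692 to 0.792. Cmtm7 rose by 0.46 ± 0.13 (SE; adjusted p = 0.0356), which was lost on leaving out control replicate 2, 4, 6, 8, 9 or 11 or knockout replicate 3, 4 or 9, and the other 4 did not pass. Klra2 (3.34), P2ry10b (2.58), Igkv3-2 (2.42), Igkv6-25 (2.91) and H2ac4 (2.64) had control means under the array median of 3.75. Values this low may lie near background, which was not tested. The values of r describe likeness, with no test.

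The other immunoglobulin constant genes did not all move. Of 3 measured, Ighg2c, a further gamma heavy chain gene, rose by 2.20 ± 0.50 (SE, adjusted p = 0.0114), from 3.66 ± 0.32 (SD, n = 11) to 5.84 ± 1.72 (SD, n = 10). Ighg3 had a difference of 0.62 ± 0.56 (adjusted p = 0.575), with a knockout SD of 1.88. Ighe, the IgE heavy chain gene, had one of 0.0019 ± 0.12 (95% interval -0.24 to 0.24).

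Among genes of plasma cells, 2 of 16 rose and none fell, where 3.28% of all genes rose and 4.05% fell. The median log2 difference was 0.062. Jchain rose by 2.16 ± 0.40 (SE; adjusted p = 0.00348), from 3.87 ± 1.04 (SD, n = 11) to 6.05 ± 0.89 (SD, n = 10), above the control mean of its run in 10 of 10 knockout livers. Fkbp11, a folding enzyme of the secretory pathway, rose by 0.86 ± 0.16 (adjusted p = 0.00415). Regulators and markers of the plasma cell state did not pass: Xbp1 had 0.24 ± 0.10, Prdm1 -0.21 ± 0.09, Irf4 0.09 ± 0.07, Mzb1 0.15 ± 0.09 and Tnfrsf17, the receptor BCMA, 0.10 ± 0.06. Irf4 (3.17), Mzb1 (3.71) and Tnfrsf17 (2.66) were under the array median of 3.75 in controls. Xbp1 and Sdc1, with control means of 10.2 and 9.10, are also made by hepatocytes.

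Among B cell surface and signalling genes, 5 of 17 rose and none fell, where 3.28% of all genes rose and 4.05% fell. The median was 0.21. Ly86, a partner of the receptor CD180 that myeloid cells share, rose by 1.47 ± 0.29 (SE; adjusted p = 0.00543), and Blnk, the adaptor that links the B cell receptor to its kinases, by 0.65 ± 0.13 (adjusted p = 0.00656). Bank1 (0.45 ± 0.13) and the kinase gene Btk (0.30 ± 0.09) also rose, as did Fcer2a, the low affinity IgE receptor CD23. Fcer2a rose by 1.08 ± 0.08 (adjusted p = 1.60e-07), from 2.98 ± 0.10 (SD, n = 11) to 4.06 ± 0.25 (SD, n = 10), and all knockout livers lay above all controls. Fcer2a is the next measured gene to Clec4g in the order of GRCm38.p6, and Clec4g sequence drives the Cre transgene; a part of the transgene in this value was not tested. Cd22, Cr2, Blk and Cxcr5 did not pass (differences of 0.065, 0.065, 0.018 and -0.016).

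Of 10 B cell transcription factor and activation genes, 0 passed the limma test and 5 had an unadjusted p under 0.05, as did 22.4% of all genes, with a median log2 difference of 0.12. Bcl6, the germinal centre repressor that hepatocytes also make, had -1.04 ± 0.39 (SE; adjusted p = 0.103). The lowest p was that of Bcl11a (0.14 ± 0.04, SE; adjusted p = 0.0693), and Pax5, the factor that holds B cell identity, had 0.11 ± 0.06 (adjusted p = 0.254). For 7 of the 10 the control mean was under the array median.

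**Figure D4:**
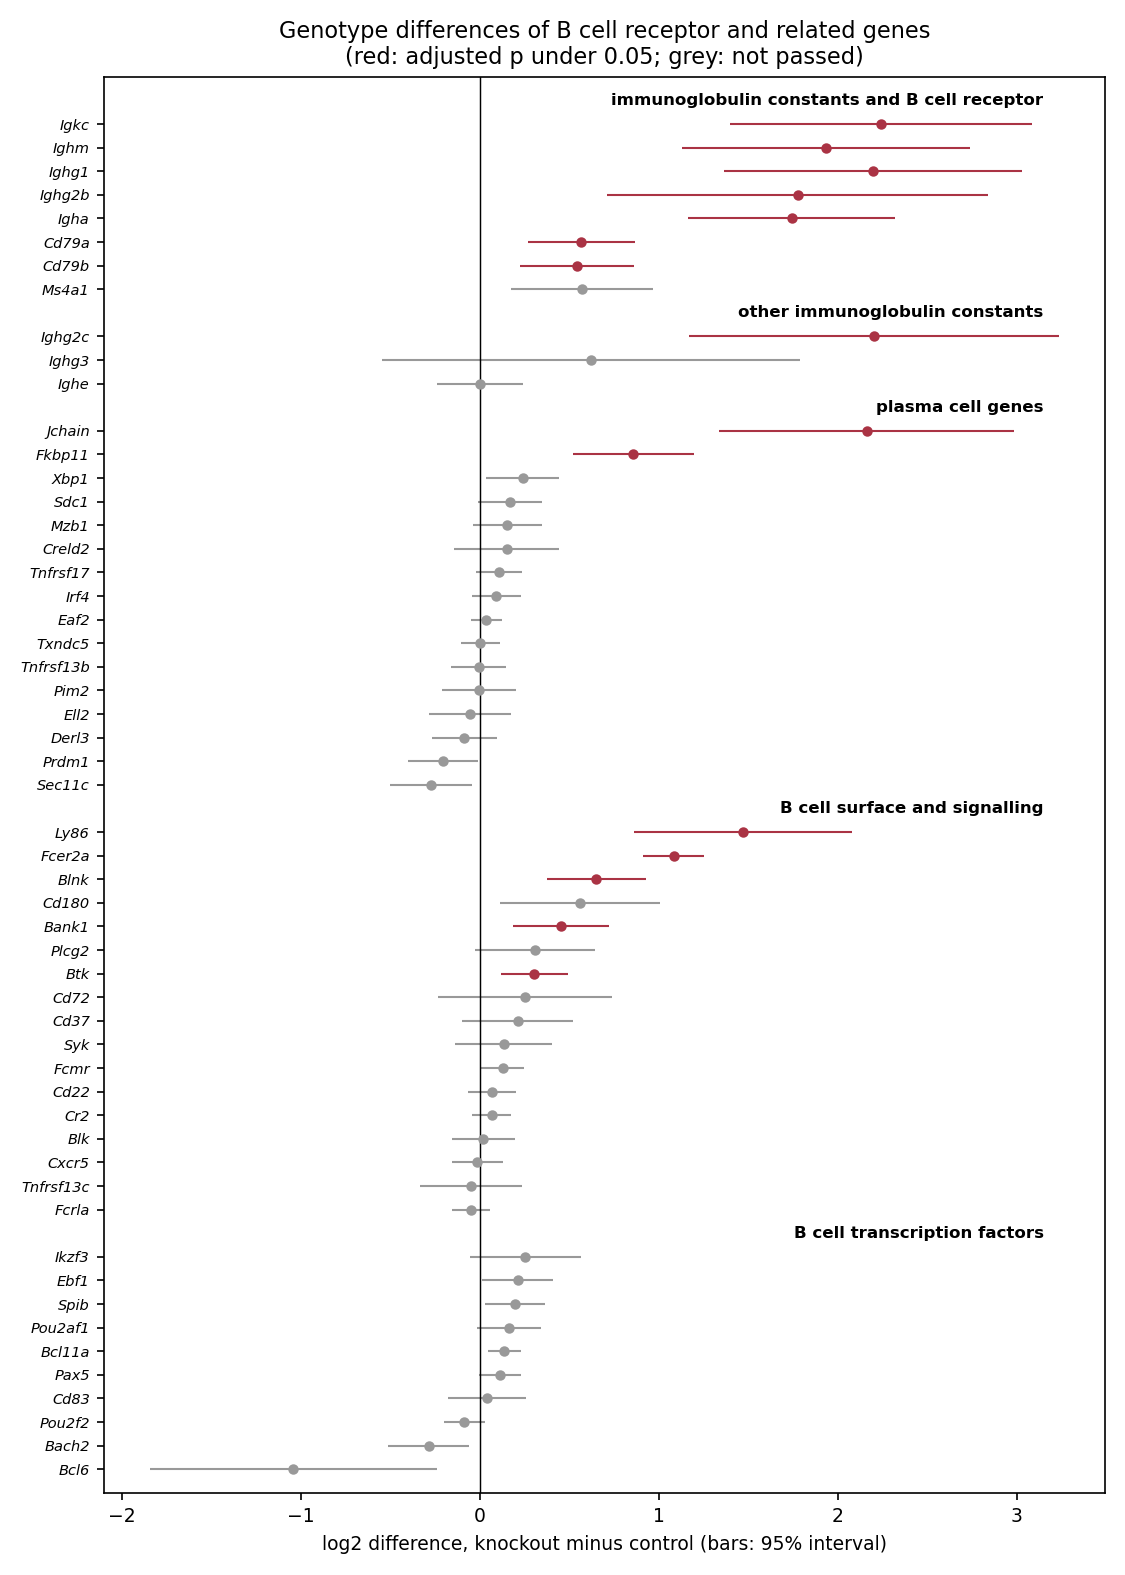
Log2 difference between knockout and control livers (horizontal axis, points) with its 95% interval (bars) for the 8 genes and for 4 lists of related genes; red passed at an adjusted p under 0.05 and grey did not. Ighg2c and Jchain, at 2.20 and 2.16, lie among the immunoglobulin constant genes, while Xbp1, Irf4 and Pax5 lie at 0.24, 0.09 and 0.11.

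Of 10 genes listed for immunoglobulin receptors and transport, not all of which bind antibody, 2 were higher and 1 lower (median 0.036). Over all genes 3.28% rose and 4.05% fell. Fcer1g, the shared signalling chain of Fc receptors, rose by 0.96 ± 0.21 (SE; adjusted p = 0.0102), and Fcgr1, the high affinity IgG receptor, by 0.74 ± 0.18 (adjusted p = 0.019). Fcgr2b, the inhibitory IgG receptor that sinusoidal endothelium uses to clear immune complexes, fell by 0.35 ± 0.09 (adjusted p = 0.0266), in 10 of 10 knockout livers. Fcgr2b missed the threshold without the run term, within run 1 alone and with the replicate number as a block. Pigr, which carries IgA into bile, had a difference of -0.044 ± 0.046 (95% interval -0.14 to 0.05), at a control mean of 12.3.

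Among 18 homing and survival factors, 3 rose and none fell (median 0.04), where 3.28% of all genes rose and 4.05% fell. Vcam1, the endothelial adhesion molecule for lymphocytes, rose by 1.20 ± 0.18 (SE; adjusted p = 7.43e-04). Ltb (0.52 ± 0.15) and Cxcr4, the receptor that holds plasma cells in their niche (0.60 ± 0.18), also rose. Ltb no longer passed without any 1 of control replicates 4, 7, 8, 9 and 11 and knockout replicates 1, 4 and 9 (adjusted p up to 0.0714), or without control replicate 3 and knockout replicate 6 together. Cxcr4 passed in 6 of 21 such fits, those without control replicate 3 or knockout replicate 1, 2, 5, 6 or 8 (adjusted p up to 0.0905 in the others). Cxcl13, the chemokine of B cell follicles, had 1.11 ± 0.39 (adjusted p = 0.0904), and Tnfsf13b, the survival factor BAFF, had 0.20 ± 0.12 (adjusted p = 0.37).

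Markers of other cells moved with the same contrast, and their part in the results was not tested. The counts of genes that rose stand beside 3.28% of all genes, and the counts at an unadjusted p under 0.05 beside 22.4%. Of 13 T cell markers 2 rose, Cd3e (0.26 ± 0.07, SE) and Trac (0.66 ± 0.19), and 4 had an unadjusted p under 0.05. Of the 13 differences 9 were positive, with a median of 0.055. The others, Trbc2 (-0.23), Zap70 (-0.19), Cd3d (-0.06) and Cd6 (-0.04), were negative. The summed linear signal of the list ran from 334 to 610 in controls and from 361 to 562 in knockout livers. Cd3e no longer passed without control replicate 2 or 4 or knockout replicate 3 or 4, nor Trac without control replicate 4, 5, 7, 8 or 9 or knockout replicate 3, 4, 6, 7, 9 or 10. Of 10 neutrophil markers 1 rose, Ngp (2.68 ± 0.58; adjusted p = 0.0091), and 8 had an unadjusted p under 0.05. All 10 differences were positive, with a median of 1.24 and sums of 83.1 to 99.5 against 104 to 4909. Of 10 monocyte and macrophage markers 4 rose, among them Adgre1 (1.36 ± 0.29), Ccr2 (1.17 ± 0.23) and Cd68 (1.01 ± 0.23), and 8 had an unadjusted p under 0.05. Here too all 10 differences were positive, with a median of 0.85 and sums of 478 to 1430 against 823 to 1875. Of 7 plasmacytoid dendritic cell markers 1 rose, Lair1 (0.59 ± 0.13), which other leukocytes share, with sums of 76.8 to 103 against 87.0 to 240, while Siglech, which defines the cell, had a difference of -0.0095. Of 4 erythroid markers 0 passed the limma test and 1 had an unadjusted p under 0.05 (Slc4a1, 0.31 ± 0.14), with sums of 59.4 to 123 against 50.7 to 182. Of 8 hepatocyte markers 0 passed the limma test and 3 had an unadjusted p under 0.05 (lowest p for Cyp2e1, -0.31 ± 0.10; adjusted p = 0.0506), with sums of 68022 to 76920 against 66043 to 76847.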

How the data were processed

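Total RNA of 21 whole livers was labelled with biotin and hybridised to Affymetrix arrays, 1 array a liver, per the labels' protocols. The deposited values are log2 signals that the authors made with RMA, per the submitters' processing notes. This method subtracts background, gives all arrays the same distribution and combines a gene's probes, so a low value can lie near background and changes there are compressed. Its version, the array design and the build are not given in the sources used here. On every array the median was 3.75. Each row is 1 Entrez gene; symbols came from the platform annotation (24705 rows with 1 symbol, 723 without).

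All rows were tested without a filter in limma 3.58.1 (R 4.3.3; lmFit, then eBayes), with genotype and number run as terms and Benjamini-Hochberg adjustment over 25428 rows. Runs are the runs of consecutive description numbers, which the labels do not call batches. Differences are knockout minus control, with the standard error of the fit. An interaction of genotype with run gave the change of a difference between runs. Pairs of genes were compared by the within-liver difference of their log2 values; the 5 planned pairs with Ighd could not be formed, which left 18. Correlations used values centred on genotype and run. Permutations numbered 100000 in Python 3.11.15 with numpy 2.4.6, and figures used matplotlib 3.10.9. The labels call the samples biological replicates, so each array was taken as 1 animal; the number of arrays limits the precision. Intervals are at 95%.

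The genes and lists were chosen with earlier results of these data known. Named were the 8 genes, Gata4, the 5 named genes nearest in pattern to Igkc and to Cd79b, and from each of 12 lists up to 3 genes with the lowest adjusted p that passed, or else the 1 with the lowest p; others were named for their known role after their values were seen. Alternatives left out the run term or each liver in turn, took each run alone, used the replicate number as a block, a second quantile normalization, median centring, rows of mean above the median, an intensity trend with robust prior, or array weights. Leaving out control replicate 3 with knockout replicate 6, and the pairs within run 1, were added after seeing the data. The procedure was tested on simulated data.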

Additional observations from a re-analysis of the deposited data

Results flagged for a closer look

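In the knockout group of 10, values of 40 named genes were looked at for a sample far from the others with Dixon's ratio, and the 8 genes described were also looked at in each genotype and run, 32 groups in all; chance gives about 1 in 20. Knockout replicate 6 stood apart for Cd79b with a log2 value of 5.37 (others 3.86 to 4.56), for Ighg1 within run 2 with 9.70 (others 5.96 to 6.90), for Igkv3-2 with 5.87 (others 2.53 to 3.93) and for Gys1 with 5.29 (others 3.95 to 4.52). Control replicate 3 stood apart within the controls of run 1 for Igkc with 11.2 (others 7.06 to 7.99) and for Ighg2b with 9.05 (others 3.70 to 3.95). In the controls of run 2, replicate 6 had a Cd79a value of 3.58 (others 3.14 to 3.29) and replicate 8 a Cd79b value of 3.18 (others 3.58 to 3.82). Among knockout livers, replicate 2 had a Fkbp11 value of 5.34 (others 6.33 to 7.18), replicate 7 an Ltb value of 5.97 (others 4.43 to 5.09), replicate 5 a Cd3e value of 3.49 (others 3.90 to 4.31) and replicate 9 an Slc4a1 value of 4.75 (others 3.04 to 3.88).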

How the results depend on the processing

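No difference of the 8 genes changed direction under any alternative. The second quantile normalization and median centring could change little, since RMA had already given all arrays the same distribution. Of the 8 genes, 7 rose over all livers, 0 within run 1 and 4 within run 2, and 5 to 8 when livers were left out in turn; none fell in any of these. Over all genes, 834 rose and 1030 fell; within run 1 this was 2 and 1, within run 2 552 rose, and without each liver in turn 565 to 981 rose and 629 to 1471 fell (629 without control replicate 8 and 661 without control replicate 9). Fewer livers enter the fits of single runs. Deviations of same-numbered livers had correlations from -0.055 to 0.165 over 10 pairs, 2 of them over 0.1. Each liver was centred on a group of 4 to 6 livers, so this cannot decide whether the numbers pair them. With the replicate number as a block, 5 of the 8 rose, with Ighg2b (adjusted p = 0.13) and Cd79b (adjusted p = 0.083) lost, and over all genes 642 rose and 602 fell; the cause was not tested. The intensity trend with robust prior lost Ighg2b (adjusted p = 0.0555). Of 18 pairs 15 passed, 9 within run 2, 3 within run 1 and 12 to 15 without each liver in turn; no block was fitted there because labels were permuted within runs. Of 28 correlations 20 passed, and 12 in the 10 knockout livers alone. Keeping only rows of mean above the median gave no value for Cd79a and Ms4a1. How far low signal limits Cd79a, Cd79b and Ms4a1 was not tested.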
